A study of Mus musculus with 2 samples.

Results

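Gzmd and Gzme encode granzymes D and E, serine proteases that are known as contents of the cytotoxic granules of lymphocytes. Their transcripts were measured here in a culture of fibroblasts given the growth factor FGF2 and in a control culture without it. The genes were taken from the array's probe identifiers, which carry an NCBI mouse gene number after the letters scl and 1 or 2 zeros. They are 2 of the 7413 genes named in this way, with 3 of the 24044 probes on each array: 1 probe for Gzmd and 2 for Gzme. Both genes were chosen by their higher signals on the FGF2 array than on the control array, so the values given here describe that difference and no test of it was made.

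The cells were fibroblasts from mouse embryos of NMRI, an outbred stock. In both groups they had been expanded in medium with fetal calf serum, arrested with mitomycin C, which crosslinks DNA and blocks division, and seeded on gelatine at 55000 cells per square centimetre. One day later they were put into a serum replacement medium made for human embryonic stem cells, in which the FGF2 culture received 40 ng/ml of FGF2 and the control culture none, and RNA was taken after 24 h. Each group is 1 culture on 1 array, so any other difference between the cultures cannot be told apart from FGF2. In such bulk RNA, more cells with a transcript and more of it per cell cannot be told apart either.

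Granzymes are made as inactive precursors, trimmed by cathepsin C and packed into granules on the proteoglycan serglycin. On contact with a target cell, natural killer cells and cytotoxic T cells release them with perforin, which lets them into the target, where they cleave proteins and can start cell death. In the mouse a run of granzyme genes from Gzmb to Gzme lies beside the mast cell protease and cathepsin G genes. Granzymes D, E, F, G and N of this run have no human counterpart. Granzymes D to G are known from activated lymphocytes and from the granulated natural killer cells of the pregnant uterus.

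In the order of the RefSeq gene table for assembly GRCm38.p6, Gzme and Gzmd stand next to each other on chromosome 14. They are followed by Gzmg, Gzmn, Gzmf, Gzmc and Gzmb, and preceded by Ctsg and the mast cell protease genes. The probes of both neighbours read higher with FGF2, and whether these probes also read each other's transcripts was not tested. Whether the readings are linked to the upstream sequences was not tested either. The bases just before the starts of Gzmd and Gzme are shown here because their upstream sequences are almost the same. Each is the 250 bases before the transcript start in RefSeq (GRCm38.p6, minus strand), at chr14:56132594-56132843 for Gzmd and chr14:56120626-56120875 for Gzme, written 5′ to 3′. From left to right, capitals mark a RUNX-type motif (AACCACA), the place of a cAMP response element (CRE) in other granzyme genes, and a TATA-like motif (TTTAAAA).
Gzmd: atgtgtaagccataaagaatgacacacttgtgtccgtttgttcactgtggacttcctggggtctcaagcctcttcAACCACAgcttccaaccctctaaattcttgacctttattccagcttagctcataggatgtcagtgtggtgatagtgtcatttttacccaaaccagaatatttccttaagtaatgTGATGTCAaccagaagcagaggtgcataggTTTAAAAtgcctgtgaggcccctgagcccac
Gzme: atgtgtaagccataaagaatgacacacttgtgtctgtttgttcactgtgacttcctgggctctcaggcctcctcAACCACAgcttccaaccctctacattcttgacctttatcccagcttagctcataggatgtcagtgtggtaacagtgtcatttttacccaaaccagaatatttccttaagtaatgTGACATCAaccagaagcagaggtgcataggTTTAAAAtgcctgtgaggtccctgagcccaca

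In a global alignment of these windows 238 of 251 columns matched (94.8%), with 11 mismatches and 2 gap columns, and the longest shared run was 45 bases. Among the other 20 pairs of the 7 granzyme genes of the run, the identity of the same 250 bases ranged between 47.3% and 82.7%. The TATA-like motif began 31 bases before the start of Gzmd and 32 bases before that of Gzme. It was found in 4 of the 7 granzyme windows and in 8.10% of all 32851 windows of the RefSeq promoter table. The RUNX-type motif, which began 175 bases before the start of Gzmd and 176 before that of Gzme, was found in 6 of the 7 and in 4.40% of all windows. Both strands were searched, and these motifs do not overlap.

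At the CRE place the 2 members differed from 3 of their relatives. The windows of Gzmc, Gzmf and Gzmg hold the palindrome TGACGTCA, which is the full CRE, as do 1.55% of all windows, while those of Gzmb and Gzmn, like Gzmd and Gzme, do not. Counting from 1 at the first base of that palindrome, Gzmd carries C4T and Gzme carries G5A. The resulting TGATGTCA and TGACATCA are reverse complements, so the 2 members hold the same 8 bases there in opposite orientation. The letters of the AP-1 motif, TGANTCA, were not in either window, were in that of Gzmb, and were in 6.75% of all windows. The following 40-base stretches, in the same build and on the same strand, are shown to set the 5 genes against each other, with the 8 bases of the CRE place in capitals.
Gzmd: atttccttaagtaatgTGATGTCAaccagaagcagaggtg
Gzme: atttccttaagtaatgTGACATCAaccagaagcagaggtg
Gzmc: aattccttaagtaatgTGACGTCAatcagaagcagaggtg
Gzmf: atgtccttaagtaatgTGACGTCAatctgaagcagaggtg
Gzmg: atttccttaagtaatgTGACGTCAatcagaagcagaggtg
A match is a description of letters and not of a bound site. No protein binding was measured in this series.

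Both granzyme genes gave low signals in the control culture and clearly brighter ones with FGF2. A signal is the average bead brightness of a probe, on a linear scale with background included, and its ± is the deposited bead standard deviation, which covers variation within an array only. A probe was counted as detected at a detection score of at least 0.99. The lowest signals among detected probes were 184.9 on the FGF2 array and 194.6 on the control array.

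The Gzme probe with the brighter mean, scl0014942.1_42-S, read 1274.8 ± 53 with FGF2 and 231.5 ± 13.4 in control. The other Gzme probe, scl014942.2_38-S, read 1158.1 ± 71.9 with FGF2 and 255.4 ± 9.8 in control. Both were detected on both arrays, and in control both lay not far above the lowest detected signal.

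The Gzmd probe, scl014941.4_46-S, read 461 ± 17.4 with FGF2 and 192.1 ± 7.8 in control. Its detection scores were 1 with FGF2 and 0.987 in control, so Gzmd was not well above background in the control culture. For all 3 probes the FGF2 and control readings lay many bead standard deviations apart. That spread does not include the variation between cultures.

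**Figure D1:**
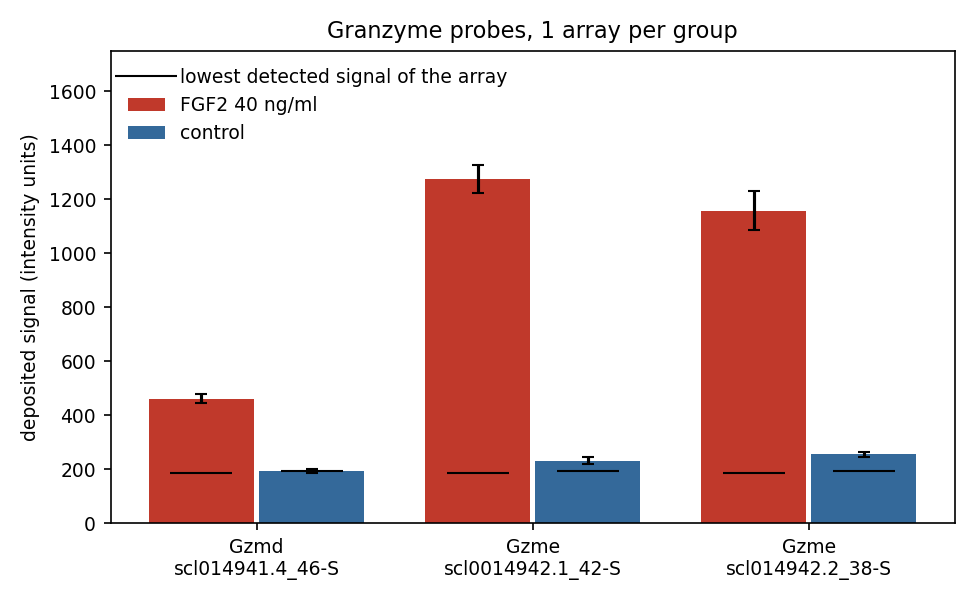
Deposited signals (intensity units) of the Gzmd probe and both Gzme probes on the FGF2 array (red, left of each pair) and the control array (blue), 1 array each. Error bars are the deposited bead standard deviations and black dashes the lowest detected signal of each array, 184.9 with FGF2 and 194.6 in control; the Gzmd control bar, at 192.1, does not reach its dash.

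The control array was brighter among strong probes, with a 90th percentile of 548.4 for FGF2 and 649.8 for control, so the arrays were quantile normalized before ratios were taken. After that step the brighter Gzme probe stood at 1394.6 with FGF2 and 220.4 in control, a log2 ratio of 2.66 ± 0.10 (FGF2 over control), or 6.33-fold higher. The other Gzme probe stood at 1271 with FGF2 and 241.7 in control, a log2 ratio of 2.39 ± 0.11, or 5.26-fold higher. Here ± is the combined bead error of the arrays.

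The 2 Gzme ratios differed by 0.27 ± 0.15 on the log2 scale, less than 2 times the bead error of that difference. Of 166 genes with exactly 2 named probes, both detected on both arrays, the median gap between probes was 0.13. In the 2 of them with at least 1 probe 2-fold higher, the median gap was 0.37. Gzme is itself 1 of these 2 genes, so that median is no independent standard for its gap. Gzme was the 1 gene among the 166 that was at least 2-fold higher on both probes. Genes with more than 2 named probes are not among the 166. Ccnd1 is such a gene and was also over 2-fold higher on every probe, at log2 ratios of 2.23, 2.07 and 1.43. Since Gzme was chosen for its higher signals, the comparison of its probes is a description only.

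For Gzmd the ratio is a bound. The normalized signals were 504.2 with FGF2 and 186.2 in control, and the control value lay under the floor of 188.4, the lowest normalized signal among detected probes of that array. Gzmd was thus at least 2.68-fold higher with FGF2 (log2 ratio at least 1.42). Because the Gzmd ratio has no upper end here, it does not show that Gzmd was raised less than Gzme.

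The background was 3007 named genes with a brightest probe detected on 1 or both arrays. Of these, 44 (1.46%) passed 2-fold upward with FGF2 and 78 (2.59%) passed 2-fold downward. Both granzyme genes are among the 44, which is how they were chosen. The median log2 ratio of the 3007 genes was 0.028. Among the 2641 of these genes detected on both arrays Gzme had rank 3 by ratio. Another 142 genes were detected with FGF2 only and have lower bounds, so no exact place among all 3007 can be given for Gzme or for Gzmd.

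**Figure D2:**
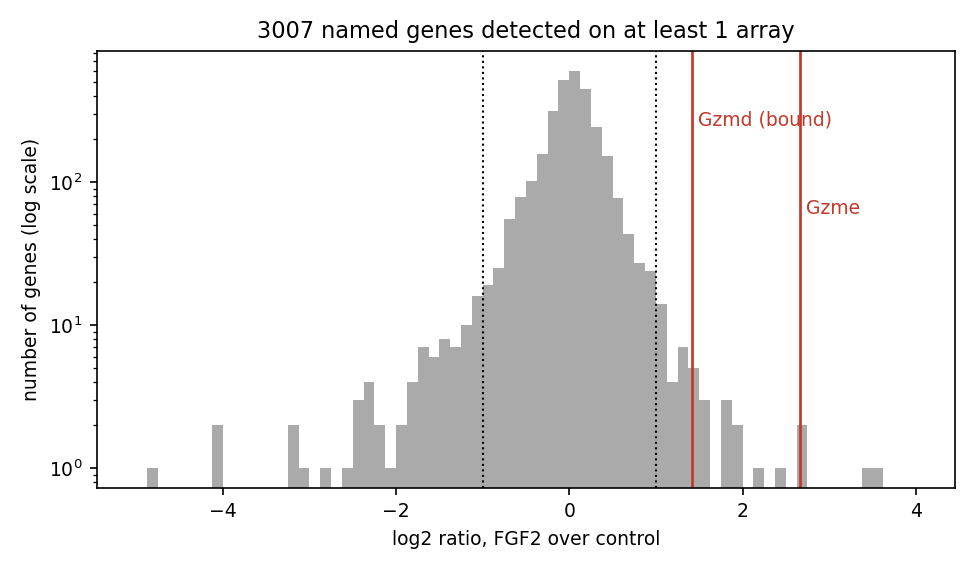
Histogram of the log2 ratio, FGF2 over control, for the 3007 named genes detected on at least 1 array, with the number of genes on a log axis. Dotted lines mark 2-fold lower and higher, and red lines mark Gzmd, at its lower bound of 1.42, and Gzme at 2.66, both in the thin right tail.

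The genes nearest to Gzme in ratio were few and spread out, since few genes differed so much. The nearest 4 by log2 ratio, over the 2 arrays and among genes detected with FGF2, were Chrna1 (a muscle acetylcholine receptor subunit), Ptgs1 (cyclooxygenase 1), Ccnd1 (cyclin D1) and Gch1 (the first enzyme of tetrahydrobiopterin synthesis). Chrna1 read 1120.4 with FGF2 and 148.5 in control, at least 6.53-fold higher after normalization, while its other probe was not detected on either array. Ptgs1 read 949.8 with FGF2 and 207.7 in control, a log2 ratio of 2.39. Ccnd1 was at 2.23, with 2.07 and 1.43 on its other probes, and Gch1 was at 3.39, with at least 0.95 on its dimmer probe, all on the normalized scale.

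Nearest to the bound of Gzmd were Ranbp1 (a partner of the nuclear transport GTPase Ran) at 1.41, Smox (spermine oxidase) at 1.43, Mindy1 (a deubiquitinase) at 1.39 and Eno1 (enolase) at 1.37. These 4 were detected on both arrays by their brightest probes, and a second Ranbp1 probe was not detected on either. Smox read 563.6 with FGF2 and 242.5 in control. Likeness over 2 arrays is a likeness of a single ratio.

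Size of the ratio depended on how background was treated, since both genes were dim in control. The authors' value table holds background-subtracted intensities, which set against the signals amount to a background of 132.6 for FGF2 and 135.4 for control and a further factor of 1.28 on the FGF2 array. In it the brighter Gzme probe had 1459.7 with FGF2 and 96.1 in control, which is 15.2-fold higher. The other Gzme probe had 1310.6 with FGF2 and 120.0 in control, which is 10.9-fold higher. Gzmd had 419.7 with FGF2 and is blank in control. Against the lowest control value of that table, 59.2, it was at least 7.10-fold higher.

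**Figure D3:**
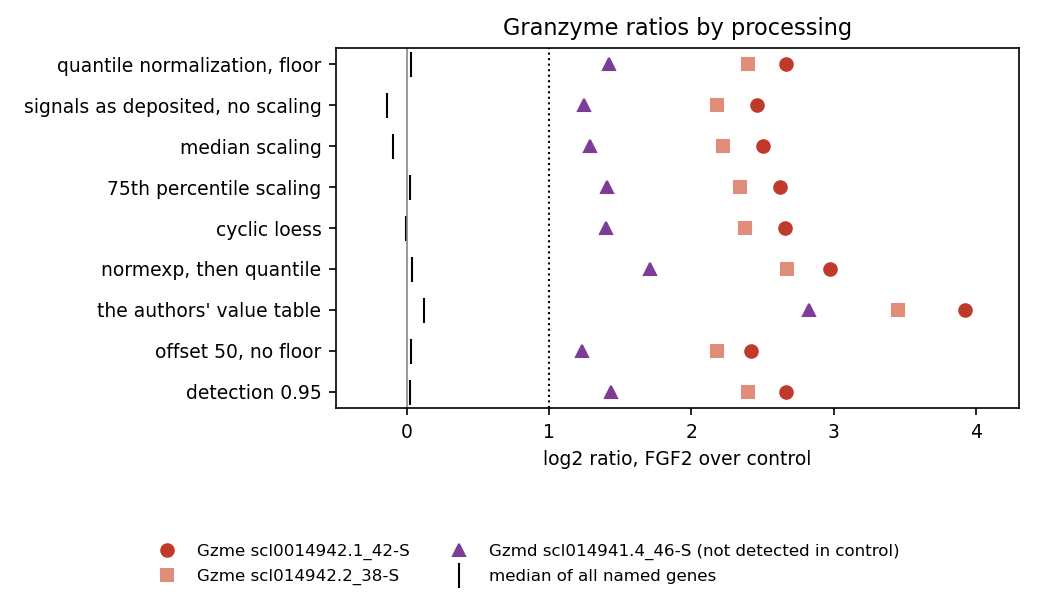
Log2 ratio, FGF2 over control, of the Gzme probes (circles and squares) and the Gzmd probe (triangles) under 9 ways of processing, with the median of all named genes as a black tick and 2-fold as a dotted line. All granzyme ratios lie right of the 2-fold line, from 1.23 for Gzmd with an offset and no floor to 3.92 for Gzme in the authors' value table, and the value table lies furthest right for all 3 probes.

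No other granzyme could be set beside them. Of the 10 granzyme genes in the RefSeq table, Gzma, Gzmb, Gzmc, Gzmf, Gzmg, Gzmk, Gzmm and Gzmn have no named probe here. The probe sequences were not used here. Whether the Gzmd and Gzme probes also read each other's transcripts or those of Gzmf and Gzmg was therefore not tested.

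Most of the remainder of the chromosome 14 run was not measured, and the part with named probes gave no detected signal. Besides Gzmd and Gzme, 2 of its 15 genes have a named probe. Cma1, a mast cell chymase, read 147.5 with FGF2 and 159.8 in control, and Mcpt4, another mast cell protease, read 126.1 with FGF2 and 129.2 in control. Elane, the neutrophil elastase gene and the third granule protease with a named probe, read 147.7 with FGF2 and 142.6 in control. None of these 3 probes was detected on either array.

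Outside the run, the 5 nearest detected named genes on each side along chromosome 14 lay between −1.03 and 0.27 on the log2 scale. The lowest of these 10 was Irf9, a subunit of the interferon-activated factor ISGF3, which read 252.2 with FGF2 and 597.4 in control. The highest was Ipo4, an importin, at 762.5 with FGF2 and 756.1 in control. Among these flanking genes none was 2-fold higher and Irf9 alone was 2-fold lower, against 1.46% higher and 2.59% lower of all 3007 genes. Several were near the lowest detected signals, where a difference is understated.

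Transcripts of the machinery that stores and delivers granzymes were measured in part. Of 20 listed genes 6 have a named probe and 4 were detected. Their median log2 ratio was −0.10, against 0.028 for all genes. None of the 4 was 2-fold higher or lower, against 1.46% higher and 2.59% lower of all 3007 genes. For so few genes that count is near those shares. Cd63, a membrane protein of lysosomes and granules, was at −0.12 ± 0.091 and Lamp2, another lysosomal membrane protein, at −0.85 ± 0.071. M6pr, a mannose 6-phosphate receptor that sorts granzymes into granules, was at −0.084 ± 0.076, and Tial1, an RNA-binding protein of the TIA family, was at 0.25 ± 0.082.

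Serglycin could not be measured above background. Srgn, its gene, read 165.3 with FGF2 and 185.9 in control and was not detected on either array. Prf1 (perforin) and Ctsc (cathepsin C) have no named probe here, so these transcripts are unmeasured here.

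Serpins include the natural inhibitors of granule proteases. Of the 3 detected serpins on a list of them, 2 were at least 2-fold lower with FGF2, against 2.59% of all 3007 genes. These 2 were Serpina3n and Serpina3g, and Serpina3g is known for targets of another kind, as given below. Of 14 listed genes 6 have a named probe, and the list was written with Serpina3n already known to be low, so its count is no independent evidence. Serpina3n, which encodes a secreted inhibitor of granzyme B in the mouse, read 231.8 with FGF2 and 2148.3 in control, a log2 ratio of −3.01 ± 0.096. Serpina3g, an intracellular serpin known for inhibiting lysosomal cathepsins, read 3123 with FGF2 and 8449.8 in control, a log2 ratio of −1.23 ± 0.061. Serpinb6a, an intracellular serpin that inhibits cathepsin G, was at 0.36 ± 0.073.

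Thus Gzme was 6.33-fold higher and Serpina3n 8.04-fold lower in the same comparison. The median of the 3 detected serpins was −1.23, which is the value of Serpina3g, against 0.028 for all genes. Because of how the list was written, this median is no independent evidence either. Whether Serpina3n acts on granzymes D or E is not known from these data.

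Of the lymphocyte cytokines, receptors and signalling genes known to raise granzyme transcripts, 6 of 18 have a named probe and none was detected. These were Il2ra, Il12a, Il18, Il21, Jak3 and Stat4, with signals between 103.2 and 158.5 with FGF2 and between 110.1 and 168.9 in control. Of 15 factors that bind granzyme promoters in lymphocytes, 8 have a named probe and 3 were detected (median 0.16). None of the 3 was 2-fold different, which is near the shares of all 3007 genes, 1.46% higher and 2.59% lower. Junb, an AP-1 subunit, was at 0.36 ± 0.062, Fosl2, another AP-1 subunit, at 0.16 ± 0.080, and Runx1 at −0.50 ± 0.072. Eomes, Runx3, Ikzf1, Creb1 and Ets1 were not detected on either array.

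The cells carried fibroblast transcripts. The few T cell and natural killer cell markers with a named probe were not detected at a score of 0.99. Over all probes, 30.9% were detected with FGF2 and 31.6% in control. No detection among so few genes therefore says little, and whether such cells were present was not tested. Of 6 fibroblast markers with a named probe 5 were detected on both arrays. Dcn (decorin) read 9883.3 with FGF2 and 11747.6 in control, and S100a4 read 1780 with FGF2 and 1935.1 in control. Col1a1, Col1a2 and Col3a1 were 2-fold or more lower with FGF2, and Postn (periostin) was not detected. Postn had detection scores of 0.337 with FGF2 and 0.954 in control, so it would pass 0.95 in control only. The summed signal of the 6 was 15675 with FGF2 and 32895 in control.

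Of 13 T cell markers 4 have a named probe (Cd3e, Cd247, Cd8b1 and Il7r) and none was detected, with a summed signal of 478.9 with FGF2 and 505.4 in control. Cd3e, part of the T cell receptor complex, read 126.3 with FGF2 and 126.6 in control. The array also carries 32 probes named in the files for T cell receptor segments, and none was detected, with a highest signal of 172.2 with FGF2 and 180.4 in control. Of 203 probes for immunoglobulin segments, 4 were detected with FGF2 and 1 in control, none 2-fold higher and none above 206.6 on either array.

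Of 12 natural killer cell markers 3 have a named probe (Klrk1, Klrc1 and Eomes) and none was detected, with a summed signal of 437.8 with FGF2 and 388.1 in control. Klrc1, an NK cell lectin receptor, read 177.8 with FGF2 and 144.6 in control. Its detection scores were 0.972 with FGF2 and 0.744 in control. At the alternative detection score of 0.95, Klrc1 would thus count as detected with FGF2 only. Klrk1, the receptor NKG2D, read 128.7 with FGF2 and 129 in control. None of the 3 mast cell markers with a named probe, Fcer1a and the granule proteases Cma1 and Mcpt4 described above, was detected. On a list for decidua and trophoblast, only 3 trophoblast markers (Prl3d1, Prl2c2 and Ascl2) have a named probe, so decidua was not assessed. None of the 3 was detected, with a summed signal of 475.8 with FGF2 and 423.6 in control. Prl2c2 had detection scores of 0.963 with FGF2 and 0.811 in control, so it too would pass 0.95 with FGF2 only. Srgn and Postn, described above, would pass 0.95 in control only.

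Macrophage and general leukocyte markers were mostly not detected. Of 12 such genes 7 have a named probe, of which 2 were detected with FGF2 and 1 in control, and their summed signal was 1122.3 with FGF2 and 1232 in control. Cd53, a tetraspanin of leukocytes, read 318.7 with FGF2 and 176.7 in control and was at least 1.82-fold higher with FGF2 after quantile normalization. Lyz2, the lysozyme gene of myeloid cells, read 220.2 with FGF2 and 374.8 in control, a log2 ratio of −0.58 ± 0.094. Ptprc, which encodes the leukocyte surface protein CD45, read 123.5 with FGF2 and 140.3 in control and was not detected, nor were Cd68, Csf1r, Itgam and Cd52. The part of Cd53-bearing cells in the granzyme signals was not tested.

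**Figure D4:**
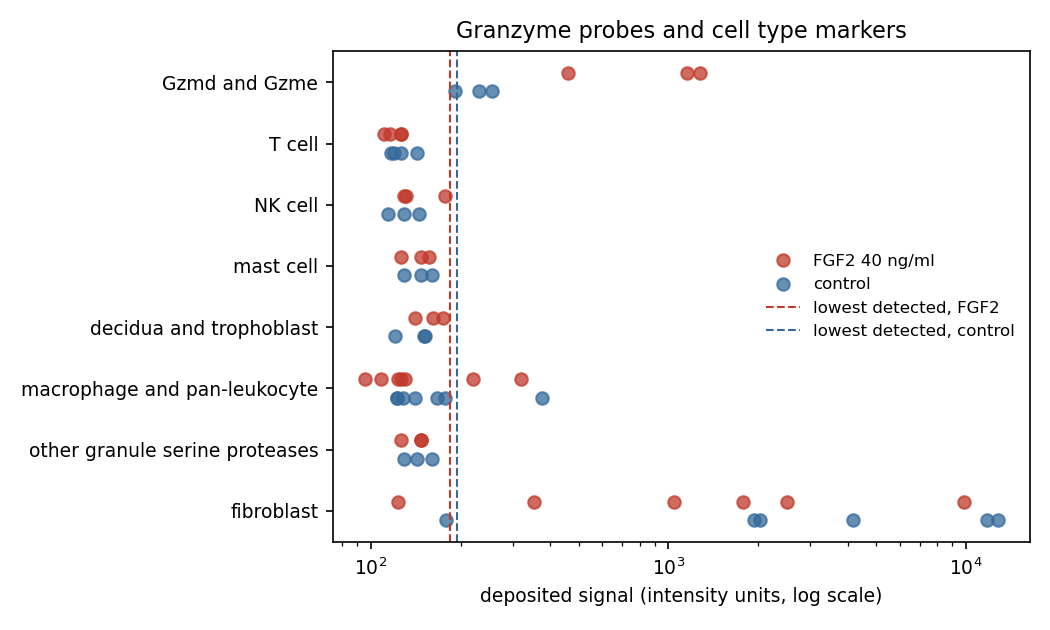
Deposited signals (intensity units, log axis) of the 3 granzyme probes and of the brightest named probe of each marker, on the FGF2 array (red, upper row of each list) and the control array (blue, lower row), with dashed lines at the lowest detected signals. The T cell, NK cell, mast cell, trophoblast and other granule protease probes lie left of the lines on both arrays, while the granzyme probes lie right of them with FGF2. The row named decidua and trophoblast holds trophoblast probes only.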

How the data were processed

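RNA of 1 FGF2 culture and 1 control culture was amplified from 300 ng of total RNA with 6 h of in vitro transcription, per the labels' protocols, and read on 1-colour Illumina bead arrays. The deposited array tables give, per the file headers, an average signal and a bead standard deviation per probe (intensity, linear) and a detection score, a fraction between 0 and 1. The headers do not say if that deviation describes single beads or their average. BeadStudio 1.0 was used, per the submitters' processing notes. The steps behind the authors' value table are not given in the sources used here. It is linear, holds no gene centring, has medians of 276.8 for FGF2 and 262.1 for control, and what sets its scaling is unknown.

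Probes were named from the gene number in their identifier, or for 9 probes an accession, through RefSeq (GRCm38.p6). This names 8893 probes (37.0%) and rests on that reading, not on a probe annotation. Signals were quantile normalized, set to a floor at the lowest normalized signal among detected probes (191.7 for FGF2, 188.4 for control) and put on the log2 scale. The probe with the highest mean signal stood for its gene. On the FGF2 array 7424 probes were detected and on the control array 7599. With 1 array per group no p-value was computed, and genes were counted at 2-fold. The number of arrays limits the precision. The code was tested on simulated data. In them only probes brighter in control than the granzyme probes were changed, and no ratio was a bound. That test therefore does not cover ratios as dim in control as these or the bound of Gzmd. Loess and normexp used limma 3.58.1 in R 4.3.3, and promoters were aligned with Biopython 1.88.

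The members and the gene lists were chosen with earlier results of these data known. The promoter motifs and the receptor segments were chosen after the data were seen. Named genes are both members, the other granzymes, list members at 2-fold or otherwise up to 4 detected ones by signal, the markers, and the 4 genes nearest in ratio to each member.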

Additional observations from a re-analysis of the deposited data

How the results depend on the processing

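All 28 ratios of the 3 granzyme probes, over the main and 9 alternative settings, stayed above 2-fold. With lower bounds taken at their value, Gzme had rank 4 among all genes in each setting that used its brightest probe, while Gzmd had rank 17 in the main setting, 14 with normexp, 7 in the authors' value table and 24 with an offset and no floor; these ranks could change if the bounds were measured. The following ratios moved by more than the bead error. Log2 ratios of the brighter Gzme probe, the other Gzme probe and Gzmd were 2.46, 2.18 and 1.24 with signals as deposited, and 2.50, 2.22 and 1.29 with median scaling. They were 2.98, 2.67 and 1.71 with normexp and quantile normalization, 3.92, 3.45 and 2.83 in the authors' value table, and 2.42, 2.18 and 1.23 with an offset of 50 and no floor, where the Gzmd value is no bound. The mean of both Gzme probes was 2.53. Counts of genes have no bead error. The genes at least 2-fold higher, 44 in the main setting, were 28 with signals as deposited and 29 with median scaling. They were 64 with normexp, 32 with an offset and no floor, and 138 in the value table. Those lower, 78 in the main setting, ranged from 71 with an offset and no floor to 158 in the value table. Of all genes changed 2-fold, 36.1% were higher in the main setting, 19.9% with signals as deposited, 21.3% with median scaling and 46.6% in the value table, and the median log2 ratio of all genes was 0.028, −0.14, −0.10 and 0.12 in that order. Less that median, the brighter Gzme probe was at 2.63, 2.61, 2.61 and 3.81. No paired analysis was possible because each group had 1 array. Signal over background limits Gzmd in particular, since its control reading was not detected. With a detection score of 0.95 it was, and the ratio, 1.44, moved by less than the bead error.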
